A study of Mus musculus with 12 samples.

Results

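The genes described here encode 10 acute phase proteins of the mouse: the serum amyloid A genes Saa1, Saa2, Saa3 and Saa4, the orosomucoid genes Orm1, Orm2 and Orm3, and Lcn2, Hp and Apcs. They were taken by name from the table of read counts, which holds 54839 features, and each name matched 1 feature. All 10 passed the expression filter that left 17121 of those features for testing. Messenger RNA was sequenced from sorted hepatocytes of male heterozygous p16-Tom mice on a C57BL/6 background, in which a CreERT2 driven by the p16Ink4a gene switches on tdTomato after tamoxifen. Every group carried both alleles and received tamoxifen at 80 mg/kg, so marked (Tom+) and unmarked (Tom-) hepatocytes differ in past reporter recombination and not in inherited genotype. The mice received corn oil, or carbon tetrachloride (CCl4) at 1 mL/kg in oil every 3 days, by intraperitoneal injection for 4 weeks. Hepatocytes were freed by collagenase perfusion and sorted without dead cells. This gave 4 groups of 3 libraries: Tom- oil, Tom+ oil, Tom- CCl4 and Tom+ CCl4. The age of the mice and the time from the last injection to harvest are not given in the sources used here. Whether libraries of 1 number came from 1 mouse is not given either, so p-values measure the spread between these libraries, which may be partly technical.

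The acute phase response is the change in the proteins that the liver releases into blood after injury or infection. Interleukin-6, acting through the receptor subunits Il6ra and Il6st and the transcription factor Stat3, and interleukin-1, acting through NF-kappaB and C/EBP factors, raise transcription of the positive acute phase genes in hepatocytes. Saa1 and Saa2 encode the inducible serum amyloid A proteins that travel on high density lipoprotein, Saa3 is made largely outside hepatocytes, and Saa4 is the constitutive form. Orosomucoids are carrier glycoproteins of plasma, Lcn2 binds bacterial siderophores, Hp (haptoglobin) binds free haemoglobin, and Apcs encodes serum amyloid P component, a pentraxin and an acute phase protein of the mouse.

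The libraries held between 37568669 and 75331523 counts. The tdTomato feature, which checks the sort, split the 12 libraries into 6 with at least 1225 CPM (read counts scaled to a common library size after TMM normalization) and 6 with at most 263 CPM, and 2 libraries were on the side opposite to their label. The library labelled Tom- oil 1 had 1794 CPM of the reporter and the library labelled Tom+ oil 2 had 135 CPM, so the calls that rest on the oil groups were also fitted without these 2 libraries. Hepatocyte markers summed to between 98390 and 144400 CPM, with all 10 markers present in every group. Ltf, a neutrophil granule gene, was at 0 counts in every library and the 10 neutrophil markers together reached at most 1.69 CPM.

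Close copies of a gene can share reads, and the sequences below show how far the copies can be told apart. The coding sequences of Saa1 and Saa2 have 366 bases each and are 95.1% identical, with 18 differing bases and a longest identical stretch of 73 bases. The stretch of 60 coding bases that separates them best lies in exon 3 of both genes, at chr7:46741335-46741394 on the minus strand for Saa1 and at chr7:46753418-46753477 on the plus strand for Saa2 (mm10, GENCODE transcripts). It holds 7 of the differing bases, shown in capitals.
Saa1: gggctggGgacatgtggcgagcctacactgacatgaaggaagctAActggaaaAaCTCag
Saa2: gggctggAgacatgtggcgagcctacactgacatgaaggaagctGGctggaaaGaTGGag
Orm1 and Orm2, of 621 coding bases each, are 89.9% identical, with a longest identical stretch of 104 bases. Their best separating stretch of 60 coding bases, with 17 differing bases in capitals, lies in exon 2, at chr4:63345089-63345148 for Orm1 and chr4:63362964-63363023 for Orm2, both on the plus strand.
Orm1: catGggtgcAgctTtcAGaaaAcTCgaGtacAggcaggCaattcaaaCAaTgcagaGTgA
Orm2: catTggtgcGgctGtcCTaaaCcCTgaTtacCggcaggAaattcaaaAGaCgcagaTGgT
Of all stretches of 50 bases in the Saa1 transcript, 13.2% were also in that of Saa2, and 20.4% of those of Orm1 were in that of Orm2. For stretches of 100 bases these shares were 0% and 6.95%. Fractional counts stood in 11 of the 12 libraries for Saa1, in 10 for Saa2 and in 12 for each orosomucoid gene, but also in 11 for Hp, 7 for Saa4, 5 for Lcn2 and 3 for Saa3, and in 0 for Apcs. How the counting divided reads of close copies is not given in the sources used here, so the split between Saa1 and Saa2, and that among the orosomucoid genes, is uncertain, and the summed level of each family is given beside its members.

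The 4 serum amyloid A genes lie within 1 cluster on chromosome 7 and the 3 orosomucoid genes within 1 cluster on chromosome 4. RefSeq promoters of 300 bases, from 250 before the start to 50 after it (GRCm38.p6), matched 8 of the 10 genes, all but Hp and Orm1. They were searched on both strands for 3 motifs of factors of the acute phase response. The C/EBP motif TTGCNNAA stood in 7 of the 8, all but that of Apcs, and in 10.8% of all 32851 promoters of this length. The matches began at -182 in Saa1 and -183 in Saa2, and at -120 in Orm2 and -121 in Orm3. Matches in close copies may thus not be independent. The STAT motif TTCNNNGAA stood in that of Apcs alone, against 8.3% of all promoters, and the NF-kappaB motif, GGGA and CC set apart by 4 bases of any kind, in 0 of the 8, against 20.7%. A match is a run of letters and no measured binding. The first 200 bases of 4 of these promoters, from 250 to 51 bases before the start, are shown because they hold a motif shared by genes that were called lower after CCl4 and genes that were not, with the C/EBP match in capitals. They lie at chr7:46743031-46743230 on the minus strand (Saa1), chr7:46751583-46751782 on the plus strand (Saa2), chr7:46715727-46715926 on the minus strand (Saa3) and chr4:63362199-63362398 on the plus strand (Orm2).
Saa1: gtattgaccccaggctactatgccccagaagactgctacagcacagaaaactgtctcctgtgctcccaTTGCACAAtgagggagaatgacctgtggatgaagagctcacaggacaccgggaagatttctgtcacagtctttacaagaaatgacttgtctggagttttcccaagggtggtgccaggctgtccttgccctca
Saa2: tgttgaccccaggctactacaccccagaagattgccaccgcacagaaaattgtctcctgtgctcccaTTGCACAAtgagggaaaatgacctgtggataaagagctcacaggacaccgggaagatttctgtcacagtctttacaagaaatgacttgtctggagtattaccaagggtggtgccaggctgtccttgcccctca
Saa3: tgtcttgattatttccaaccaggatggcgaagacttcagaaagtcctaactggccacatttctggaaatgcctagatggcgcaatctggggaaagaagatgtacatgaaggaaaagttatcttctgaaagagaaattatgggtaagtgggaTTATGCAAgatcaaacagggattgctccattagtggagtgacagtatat
Orm2: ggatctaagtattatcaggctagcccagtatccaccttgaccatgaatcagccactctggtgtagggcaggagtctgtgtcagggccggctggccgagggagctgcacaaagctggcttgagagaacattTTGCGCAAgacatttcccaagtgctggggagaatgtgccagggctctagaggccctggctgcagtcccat

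The genes differed widely in level. Counts per length of the main transcript were scaled by each library's total of counts per deposited length, so they are not true TPM. On this scale Hp was highest with a median of 7495 over the 12 libraries, followed by Orm1 at 3453, Saa1 at 1026, Saa4 at 470.4, Apcs at 409.9, Saa2 at 334.6, Orm2 at 249.2, Lcn2 at 159.1, Saa3 at 33.2 and Orm3 at 19.7. Hp and Orm1 did not overlap, Hp ranging from 5266 to 11030 and Orm1 from 2864 to 3783. Saa1 ranged from 302.1 to 7329 and so overlapped both of these and every gene down to Lcn2, so its place in the order depended on the library. The deposited feature lengths of Saa1, Saa2, Saa3 and Lcn2 are several times their transcript lengths, and with them the TPM median of Saa1 was 252.2 and that of Saa2 80.5. Saa1 then ranked below Saa4 and Apcs, whose medians stayed at 470.4 and 409.9. Values below are CPM, which compare a gene between libraries and not with other genes.

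The spread over the 12 libraries was widest for the inducible serum amyloid A genes, followed by Saa3. The highest library had 52.6 times the CPM of the lowest for Saa2 and 28.2 times for Saa1. The same ratio was 14.3 for Saa3, 4.53 for Lcn2, 4.37 for Orm2, 3.13 for Saa4, 2.99 for Orm3, 2.28 for Hp, 1.62 for Orm1 and 1.59 for Apcs. Orm1, Hp and Apcs thus varied far less over the same libraries in which Saa1, Saa2 and Saa3 varied by more than an order of magnitude.

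**Figure D1:**
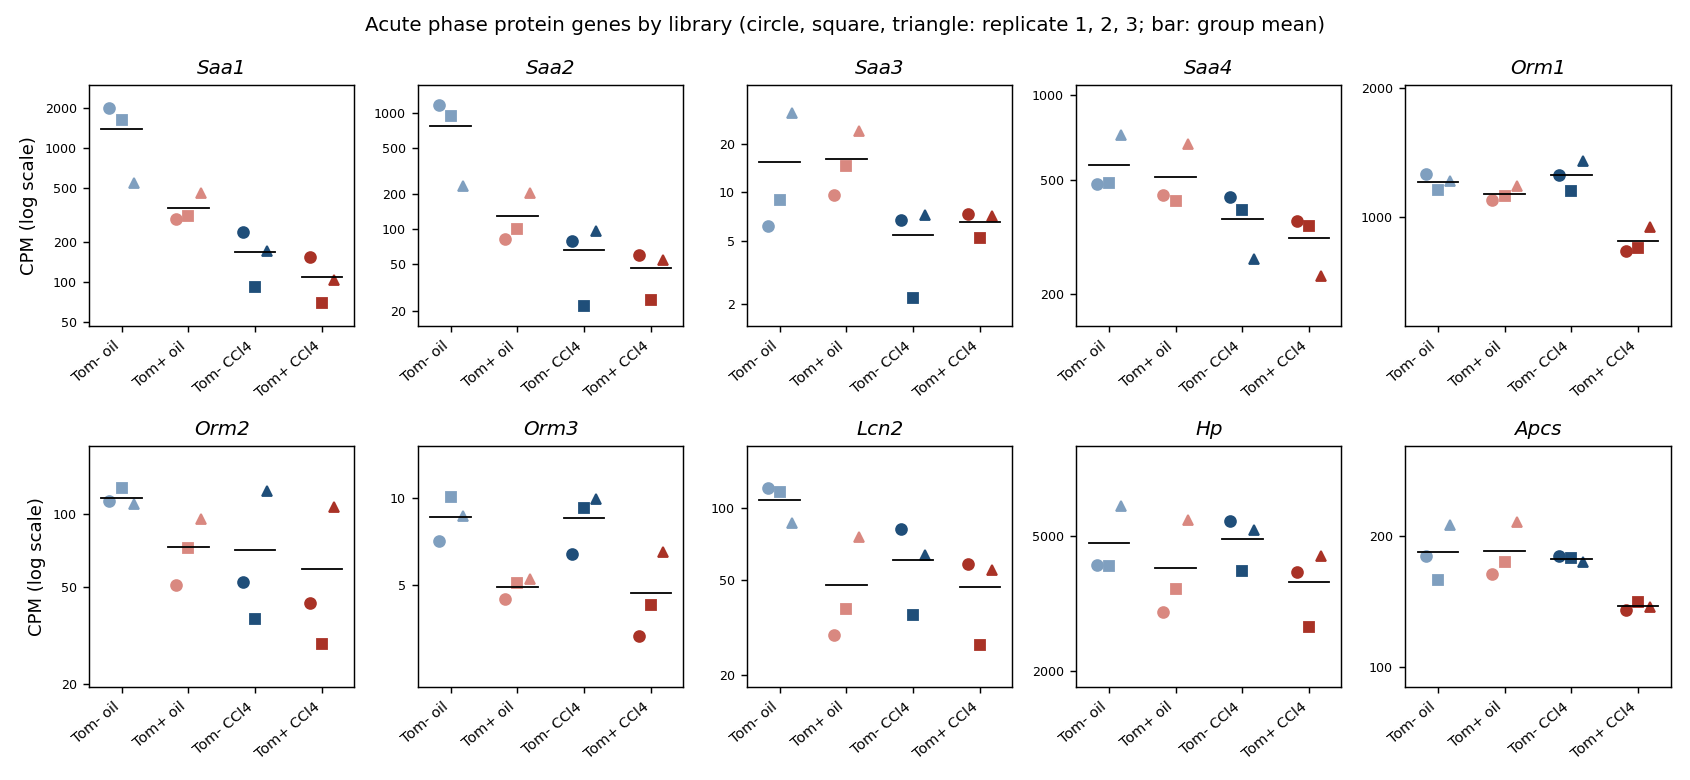
Level of each of the 10 genes in every library, in TMM-normalized CPM on a log axis, for the 4 groups on the horizontal axis. Circles, squares and triangles stand for replicates 1, 2 and 3 and the bar for the group mean. Saa1 lay between 296 and 1975 CPM in the 6 oil libraries and between 69.97 and 238 CPM in the 6 CCl4 libraries, while Orm1 stayed between 837 and 1356 CPM throughout.

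The first comparison was that of CCl4 with oil within each fraction, which asks how the expression of these genes differed at the time of harvest. In Tom- hepatocytes Saa1 and Saa2 were lower after CCl4 and the other 8 genes did not pass the test. In Tom+ hepatocytes none of the 10 passed both thresholds, although all 10 fitted log2 fold changes were below 0. A gene was called at an adjusted p below 0.05 with a log2 fold change beyond 0.75 in edgeR's quasi-likelihood test.

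Saa1 had 1975, 1615 and 549 CPM in the Tom- oil libraries 1, 2 and 3, against 238, 92.2 and 170 CPM in the Tom- CCl4 libraries. In Tom+ hepatocytes it had 296, 308 and 463 CPM with oil and 154, 70 and 103 CPM with CCl4. All 6 oil libraries were thus above all 6 CCl4 libraries, and Saa1 was the only 1 of the 10 genes for which this held, against 3.49% of all tested genes that were lower in this way. The group means were 1380 ± 742 CPM in Tom- oil and 167 ± 72.8 CPM in Tom- CCl4 (SD, n = 3 each). The log2 fold change in Tom- was -3.05 (SE 0.55), with an adjusted p of 0.00745 in edgeR's quasi-likelihood test. In Tom+ it was -1.71 (SE 0.523), with an adjusted p of 0.0785, and the call was made there by DESeq2's Wald test, with an adjusted p of 0.00682, and by edgeR on the 6 Tom+ libraries alone, with an adjusted p of 0.0287.

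Saa2 followed the same order of groups at lower CPM. Its Tom- oil libraries had 1162, 939 and 234 CPM and its Tom- CCl4 libraries 80.2, 22.1 and 97.2 CPM. The Tom+ oil libraries had 82.5, 100.3 and 205 CPM and the Tom+ CCl4 libraries 59.7, 24.7 and 54.1 CPM, so that the groups did not overlap within either fraction. The log2 fold change of Saa2 was -3.55 (SE 0.787, adjusted p = 0.0183, edgeR) in Tom- and -1.48 (SE 0.73, adjusted p = 0.256, edgeR) in Tom+. As 1 feature, Saa1 and Saa2 summed to 3138, 2553 and 783 CPM in Tom- oil and to 318, 114 and 268 CPM in Tom- CCl4, and the log2 fold change of the sum was -3.21 (SE 0.607) in Tom- and -1.65 (SE 0.572) in Tom+. Saa2 stood at 27.9% to 58.9% of the Saa1 CPM in the 6 oil libraries and at 24% to 57% in the 6 CCl4 libraries, so that this share did not separate the treatments.

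The size of the Saa1 and Saa2 values in Tom- oil rested on libraries 1 and 2, of which the first carried reporter at the level of the Tom+ libraries. Without the library labelled Tom- oil 1, the adjusted p of Saa2 in Tom- was 0.0502 with a log2 fold change of -3.14, and the call ended. Without that library and the library labelled Tom+ oil 2, Saa1 in Tom- remained called, with a log2 fold change of -2.69 (SE 0.586, adjusted p = 0.0352, edgeR), and Saa2 did not, with -3.13 (SE 0.836, adjusted p = 0.0656, edgeR). In Tom+ Saa1 was then at -1.79 (SE 0.576, adjusted p = 0.139, edgeR) and Saa2 at -1.63 (SE 0.813, adjusted p = 0.335, edgeR). The fit without both libraries called 0 of the 10 genes in Tom+ and in the interaction. Of all 17525 genes it called 366 higher and 248 lower in Tom+, and 62 higher and 87 lower in the interaction.

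The other 2 serum amyloid A genes shifted less. Saa4 had 485, 488 and 722 CPM in Tom- oil and 438, 394 and 264 CPM in Tom- CCl4, and 445, 424 and 672 CPM in Tom+ oil and 361, 345 and 230 CPM in Tom+ CCl4. The groups did not overlap in either fraction, but the differences did not pass the test, with log2 fold changes of -0.63 (SE 0.255, adjusted p = 0.117, edgeR) in Tom- and -0.72 (SE 0.255, adjusted p = 0.107, edgeR) in Tom+. Saa3 was at 6.12, 8.91 and 31.3 CPM in Tom- oil, at 9.66, 14.5 and 24.2 CPM in Tom+ oil, and at 2.18 to 7.27 CPM in the 6 CCl4 libraries. Its log2 fold change was -1.52 (SE 0.67, adjusted p = 0.159, edgeR) in Tom- and -1.30 (SE 0.658, adjusted p = 0.267, edgeR) in Tom+. Without library 3 of Tom- oil the value of Saa3 in Tom- was -0.48, with an adjusted p of 0.569, and with each other library left out it was between -1.15 and -1.90. Saa3 is known from macrophages, and the 2 oil libraries numbered 3, which had most of it, also had the highest sums of 12 macrophage and Kupffer cell markers among the oil libraries, 111 CPM in Tom- and 168 CPM in Tom+ against 20.7 to 39.6 CPM in the other 4. In the CCl4 libraries these markers summed to between 81.2 and 240 CPM. Their part in the level of Saa3 was not tested.

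The orosomucoid genes showed no shared response to CCl4. Orm1 had 1264, 1159 and 1212 CPM in Tom- oil and 1256, 1150 and 1356 CPM in Tom- CCl4, a log2 fold change of 0.05 (SE 0.0943, adjusted p = 0.76, edgeR). In Tom+ it went from 1099, 1120 and 1181 CPM with oil to 837, 850 and 951 CPM with CCl4. The groups did not overlap, and the log2 fold change of -0.37 (SE 0.0944) had an adjusted p of 0.0271 in edgeR's test but was smaller than the fold threshold, and without the library labelled Tom- oil 1 and the library labelled Tom+ oil 2 that adjusted p was 0.0749. Orm2 was at 113, 128 and 110.2 CPM in Tom- oil and at 52.8, 36.9 and 124 CPM in Tom- CCl4, where library 3 stood above the other 2 and within the oil range. Its log2 fold change was -0.71 (SE 0.554, adjusted p = 0.417, edgeR) in Tom- and -0.29 (SE 0.553, adjusted p = 0.799, edgeR) in Tom+. Orm3 differed by -0.02 (SE 0.229) in Tom- and -0.07 (SE 0.233) in Tom+ on the log2 scale. Summed as 1 feature, the orosomucoid genes had a log2 fold change of -0.004 (SE 0.108) in Tom- and -0.36 (SE 0.108) in Tom+.

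Of the other 3 genes, Apcs was the steadiest. It had 180.5, 159 and 213 CPM in Tom- oil and 181, 178 and 174 CPM in Tom- CCl4, a log2 fold change of -0.05 (SE 0.115, adjusted p = 0.804, edgeR). In Tom+ it went from 164, 175 and 216 CPM to 135, 141 and 138 CPM, with a log2 fold change of -0.42 (SE 0.115) and an adjusted p of 0.035 in edgeR's test, again smaller than the fold threshold, and an adjusted p of 0.0801 without the same 2 libraries. Lcn2 was at 121, 117 and 86.8 CPM in Tom- oil and at 81.8, 35.5 and 63.5 CPM in Tom- CCl4. These groups did not overlap, but its log2 fold change of -0.84 (SE 0.44, adjusted p = 0.226, edgeR) did not pass the test. In Tom+ Lcn2 had 29.3, 37.8 and 75.3 CPM with oil and 58.5, 26.7 and 55.1 CPM with CCl4, with overlapping groups and a log2 fold change of -0.02 (SE 0.438). Hp was between 4073 and 6138 CPM in Tom- oil and between 3926 and 5542 CPM in Tom- CCl4, and between 2981 and 5563 CPM in Tom+ oil and between 2694 and 4370 CPM in Tom+ CCl4. Its log2 fold changes were 0.04 (SE 0.257) and -0.13 (SE 0.257), with adjusted p of 0.94 and 0.805 in edgeR's test.

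In Tom- hepatocytes 2 of the 10 genes were called lower, against 1.59% of all 17121 genes tested, and 0 were called higher, against 6.33%. In Tom+ hepatocytes 0 were called lower, against 2.34%, and 0 higher, against 2.9%. DESeq2 called 1 of the 10 lower in Tom+, against 2.88% of all genes. Saa1, Saa4, Orm1 and Apcs had an unadjusted p below 0.05 there in edgeR, as did 24.4% of all genes. Groups did not overlap, with CCl4 lower, for 4 of the 10 genes in Tom- (Saa1, Saa2, Saa4 and Lcn2), against 16.8% of all genes, and for 6 of the 10 in Tom+ (Saa1, Saa2, Saa3, Saa4, Orm1 and Apcs), against 14.6%. The median log2 fold change of the 10 genes was -0.67 in Tom- and -0.39 in Tom+, and that of all tested genes was 0.005 and 0.002. Since Saa1 and Saa2 may share reads, their 2 calls may not be independent.

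When the same-numbered Tom- and Tom+ libraries were summed to give 3 oil and 3 CCl4 values, Saa1 had a log2 fold change of -2.57 (SE 0.391, adjusted p = 0.0202, edgeR) and Saa2 one of -2.87 (SE 0.578, adjusted p = 0.0481, edgeR). These 2 genes of the 10 were called lower, against 1.44% of the 17743 features tested, and 0 higher, against 3.34%. The calls were unstable: without oil number 1 the adjusted p was 0.0691 for Saa1 and 0.106 for Saa2, without oil number 2 it was 0.0528 and 0.0976, and without CCl4 number 3 it was 0.107 and 0.143. Without oil number 3 or CCl4 number 1 that of Saa2 alone was above the threshold, at 0.0515 and 0.1. Orm2 was called when CCl4 number 3 was left out, with a log2 fold change of -1.23 and an adjusted p of 0.0399.

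**Figure D2:**
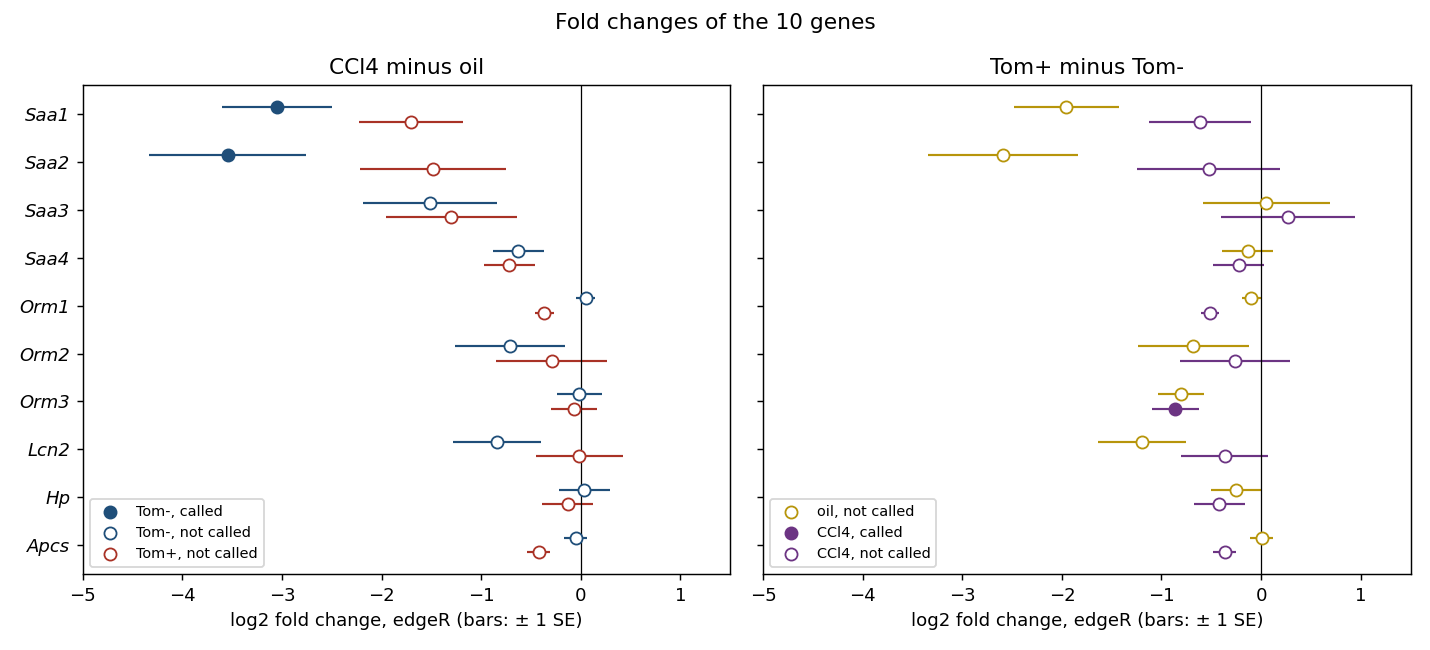
Fitted log2 fold changes of the 10 genes on the horizontal axis, with bars of 1 SE, for CCl4 minus oil in each fraction (left) and Tom+ minus Tom- in each treatment (right). Filled points were called at adjusted p below 0.05 and a log2 fold change beyond 0.75. Saa1 and Saa2 have the largest values in Tom-, at -3.05 and -3.55, and Orm3 is the only filled point on the right, at -0.86.

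The second comparison was that of Tom+ with Tom- hepatocytes, which asks how marked and unmarked cells of 1 treatment differ. After CCl4, Orm3 was lower in Tom+ hepatocytes and 9 of the 10 fitted values were below 0. Tom- CCl4 libraries had 6.42, 9.23 and 9.91 CPM of Orm3 and Tom+ CCl4 libraries 3.36, 4.28 and 6.51 CPM, so that the groups overlapped by 1 library. The log2 fold change was -0.86 (SE 0.232), with an adjusted p of 0.0466 in edgeR's test. The call lay near the threshold and was kept in 3 of the 12 fits that each left out 1 library. In those 12 fits the adjusted p was from 0.0228 to 0.164 in edgeR's test and the log2 fold change from -1.16 to -0.66. On the 6 CCl4 libraries alone the call was lost, with an adjusted p of 0.0958 in that test. It was lost without library 2 or 3 of Tom- oil, any of the 3 labelled Tom+ oil, library 2 or 3 of Tom- CCl4, or library 1 or 2 of Tom+ CCl4. The oil libraries enter this contrast only through the shared fit. Orm3 counts were between 196 and 519 per library, and the split of reads among the orosomucoid genes applies here too.

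Orm1 and Apcs were the 2 genes whose CCl4 groups did not overlap, against 14.6% of all genes tested that were lower in Tom+ in this way. Orm1 was at 1256, 1150 and 1356 CPM in Tom- and at 837, 850 and 951 CPM in Tom+, a log2 fold change of -0.51 (SE 0.0945, adjusted p = 0.00979, edgeR). That of Apcs was -0.37 (SE 0.115, adjusted p = 0.078, edgeR). In all, 1 of the 10 genes was called lower in Tom+ after CCl4, against 1.74% of all genes, and 0 were called higher, against 0.222%.

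Libraries of the same number deviated together within each treatment, so the replicate number was also fitted as a block. With the block, Orm3 after CCl4 had a log2 fold change of -0.88 (SE 0.141, adjusted p = 0.00113, edgeR) and remained the 1 gene of the 10 called, against 3.25% of all genes called lower in that fit. Orm1, Hp, Apcs and Saa4 then had adjusted p of 0.000246, 0.00271, 0.00291 and 0.0271 in edgeR's test, each with Tom+ lower in 3 of 3 pairs and each with a log2 fold change smaller than the threshold, at -0.51, -0.43, -0.37 and -0.22.

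In oil the differences between the labelled fractions were larger for Saa1, Saa2 and Lcn2 than after CCl4, but they were uneven between pairs. The log2 ratio of Tom+ to Tom- for Saa1 was -2.74, -2.39 and -0.25 in pairs 1, 2 and 3, that for Saa2 was -3.82, -3.23 and -0.19, and that for Lcn2 was -2.05, -1.63 and -0.21. For these genes pairs 1 and 2 thus stood apart from pair 3, and each of pairs 1 and 2 holds a library whose reporter level goes against its label. The reporter in the Tom- and Tom+ library was at 1794 and 1546 CPM in pair 1, at 157 and 135 CPM in pair 2, and at 143 and 1225 CPM in pair 3. The large gaps in pairs 1 and 2 thus lay between libraries of like reporter level, and only pair 3 compared low with high reporter. Orm3 had -0.66, -0.99 and -0.73, with no such gap. In the fit without the block, 0 of the 10 genes and 0% of all genes were called in either direction by edgeR. DESeq2 called 17 genes in all, 0.0642% of those tested being called lower in Tom+, among them Saa1 with an adjusted p of 0.0308. In edgeR, 1198 of all genes had an unadjusted p below 0.05, among them Saa1, Saa2, Orm3 and Lcn2, with log2 fold changes of -1.96 (SE 0.527), -2.59 (SE 0.754), -0.81 (SE 0.231) and -1.19 (SE 0.443) and adjusted p of 0.524, 0.551, 0.499 and 0.643. The 2 groups did not overlap, with Tom+ lower, for 5 of the 10 genes (Saa1, Saa2, Orm2, Orm3 and Lcn2), against 5.57% of all genes tested.

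Without the 2 libraries whose reporter went against the label 1 complete oil pair is left, so the blocked fit was not repeated without them. With the replicate block, Orm3 in oil had a log2 fold change of -0.79 (SE 0.14) and an adjusted p of 0.0246 in edgeR's test, and was the 1 gene of the 10 called lower, against 0.169% of all genes. Pairs 1 and 2 of this fit each set 2 libraries of like reporter level against each other. The blocked values in oil thus compare labels, and marked with unmarked cells only in pair 3. Orm2 had -0.72 (SE 0.147, adjusted p = 0.0781, edgeR) and was lower in Tom+ in 3 of 3 pairs. Without the 2 libraries whose reporter went against the label, and with no block, the log2 fold changes in oil were -1.53 (SE 0.651) for Saa1, -2.04 (SE 0.932) for Saa2 and -0.98 (SE 0.584) for Lcn2, with adjusted p of 0.772, 0.813 and 0.889 in edgeR's test.

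**Figure D3:**
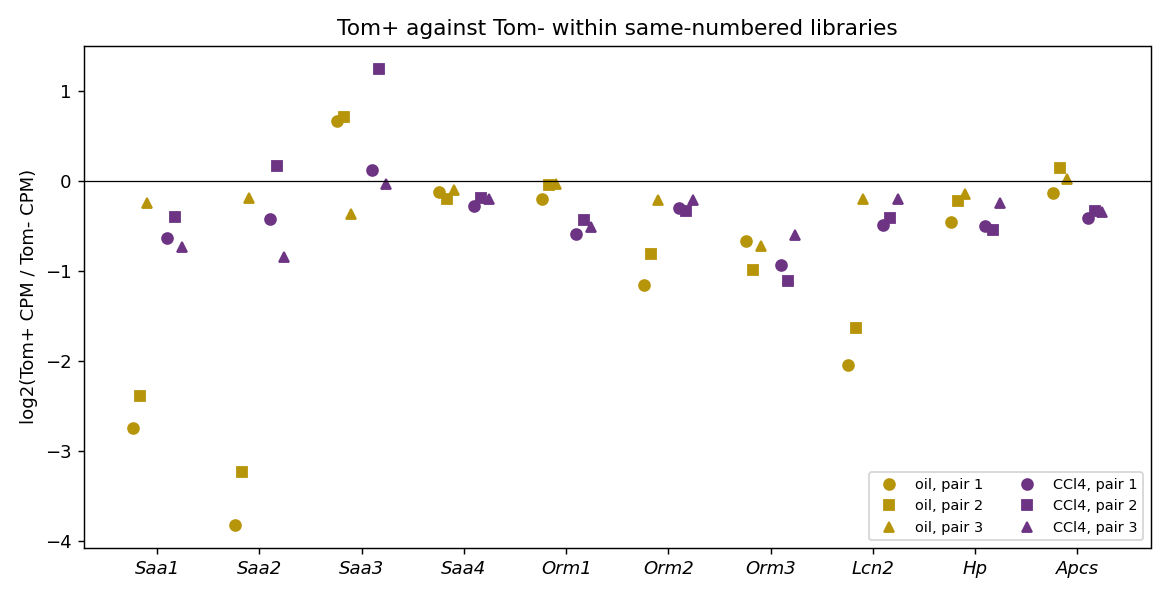
The log2 ratio of Tom+ to Tom- CPM on the vertical axis for each of the 10 genes, in 3 same-numbered pairs with oil and 3 with CCl4. Saa1, Saa2 and Lcn2 in oil fall to between -1.63 and -3.82 in pairs 1 and 2 and lie between -0.19 and -0.25 in pair 3, while Orm3 lies between -0.61 and -1.11 in all 6 pairs.

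The interaction of fraction and treatment, which is the difference between the 2 responses to CCl4, called 0 of the 10 genes, against 1.17% of all genes in edgeR, and 3178 of all genes had an unadjusted p below 0.05. DESeq2 called 0 of the 10 as well, against 3.41% of all genes. The interaction was 1.34 (SE 0.724, adjusted p = 0.362, edgeR) for Saa1 and 2.06 (SE 1.02, adjusted p = 0.326, edgeR) for Saa2, so that the larger fall in Tom- than in Tom+ did not pass the test of that difference. Orm1 and Apcs, with interactions of -0.42 (SE 0.133) and -0.37 (SE 0.163), had unadjusted p of 0.00782 and 0.0388 and adjusted p of 0.123 and 0.245. With the block their adjusted p were 0.0127 and 0.0236 in edgeR's test, at -0.41 and -0.37, smaller than the fold threshold.

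Several members varied together from library to library. Across the 12 libraries, which share the 4 groups, Pearson's r of log2(CPM + 1) was 0.979 for Saa1 and Saa2, 0.829 for Saa2 and Lcn2, 0.763 for Saa1 and Lcn2 and 0.754 for Saa2 and Orm2. For Orm1 and Apcs it was 0.778, and for Saa1 and Hp 0.268. Among the 13052 other genes with a mean of at least 1 CPM, the 3 with the highest r to Saa1 were Fnip2 (0.959), Mcm10 (0.949) and 2200002D01Rik (0.916). Those most like Orm1 were Cpb2 (0.951), Eva1a (0.941) and Hsd17b13 (0.916), and those most like Apcs were Gm16573 (0.931), Aig1 (0.929) and N4bp2l1 (0.924). Those most like Hp were Nfkbil1 (0.904), Gm45774 (0.876) and Mt2 (0.873), and those most like Lcn2 were Gm24270 (0.884), Klf11 (0.878) and Gm16575 (0.866). These values describe 12 libraries of 4 groups and are not tests.

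Few of the other positive acute phase genes were called. Of 21 listed, such as fibrinogen chains, ceruloplasmin and complement C3, 0 were called lower and 1 higher in Tom-, and 1 lower and 1 higher in Tom+. The median log2 fold change of the list was 0.15 in Tom-, with 8 values below 0, and -0.15 in Tom+, with 15 below 0. Itih3, Serpina3n, Serpina3m and Serping1, protease inhibitors or their relatives and named here after their values were seen, had adjusted p of 0.00793, 0.0109, 0.0182 and 0.0186 in Tom+ in edgeR's test, at log2 fold changes of -0.54, -0.55, -0.46 and -0.59, smaller than the fold threshold. Crp, the C-reactive protein gene and a pentraxin like Apcs, lay between 491 and 670.2 CPM in the oil libraries and between 379 and 585 CPM in the CCl4 libraries, with log2 fold changes of -0.20 (SE 0.134) in Tom- and -0.40 (SE 0.135) in Tom+ and adjusted p of 0.321 and 0.0811 in edgeR's test. Hpx, which encodes the haem carrier haemopexin, was lower after CCl4 in Tom+, from 6061 to 8799 CPM to 3125 to 4682 CPM, with a log2 fold change of -0.89 (SE 0.194, adjusted p = 0.012, edgeR). Hamp, the gene of the iron hormone hepcidin, was higher in Tom+ after CCl4, from 49.7 to 67.7 CPM to 197 to 264 CPM (log2 fold change 1.85, SE 0.429, adjusted p = 0.0277, edgeR). Cd14, the lipopolysaccharide co-receptor, was higher in Tom-, with 0.316 to 1.64 CPM in oil and 2.15 to 2.99 CPM after CCl4 (log2 fold change 1.71, SE 0.531, adjusted p = 0.0461, edgeR). Without the library labelled Tom- oil 1 and the library labelled Tom+ oil 2, Hpx remained called in Tom+, with an adjusted p of 0.0405, while Hamp had an adjusted p of 0.0677 and Cd14 one of 0.149 in edgeR's test.

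Between fractions after CCl4, 1 of the 21 was called lower in Tom+ and 0 higher. That gene was Hpx, with a log2 fold change of -0.84 (SE 0.194, adjusted p = 0.0258, edgeR), and the list median was -0.35 with 20 of 21 fitted values below 0. In oil and in the interaction 0 of the 21 were called.

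Negative acute phase genes, which encode plasma proteins that decline during an acute phase response, had no member called lower. Of 10 listed, 0 were called in Tom-, where the list median was 0.39 and 1 value was below 0. In Tom+ 1 was called higher, with a list median of 0.003. That gene was Serpina6, of corticosteroid-binding globulin, which went from 235 to 348 CPM with oil to 411 to 547 CPM with CCl4 (log2 fold change 0.84, SE 0.152, adjusted p = 0.00433, edgeR), and remained called without the 2 libraries whose reporter went against the label, with an adjusted p of 0.00102. Alb, of albumin, had a log2 fold change of 0.42 (SE 0.127, adjusted p = 0.0395, edgeR) in Tom- and -0.16 (SE 0.127, adjusted p = 0.478, edgeR) in Tom+, below the fold threshold in both. Ttr, Serpina6, F12, Trf and Fetub, named here after their values were seen, were also higher in Tom- by less than that threshold. Their log2 fold changes were 0.57, 0.65, 0.39, 0.47 and 0.38, with adjusted p of 0.00177, 0.012, 0.0127, 0.0276 and 0.0329 in edgeR's test. Without the 2 libraries whose reporter went against the label, Alb, Trf and Fetub had adjusted p of 0.139, 0.113 and 0.115 in that test. No gene of this list was called between fractions or in the interaction, where the counts were 0 of 10. After CCl4, 9 of its 10 values were below 0 in Tom+ against Tom-, with a median of -0.23, so lower values were not confined to positive acute phase genes.

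Among 24 genes of interleukin-6 and interleukin-1 signalling, 3 were called higher and 0 lower in Tom- after CCl4, and 0 in Tom+. Socs3, which encodes the feedback inhibitor of interleukin-6 signalling, was at 4.22 to 4.67 CPM in Tom- oil and at 7.51 to 24.9 CPM in Tom- CCl4, with a log2 fold change of 1.69 (SE 0.46, adjusted p = 0.0331, edgeR). In Tom+ it was 1.47 (SE 0.453, adjusted p = 0.0733, edgeR), and the groups did not overlap there, at 4.66 to 5.46 and 9.69 to 23.2 CPM. The highest Socs3 levels were thus in CCl4 libraries, where Saa1 was lowest. Osmr, the oncostatin M receptor, had a log2 fold change of 1.41 (SE 0.327, adjusted p = 0.0115, edgeR) in Tom-, from 0.794 to 1.86 CPM with oil to 2.54 to 3.62 CPM with CCl4, and Nfkbiz, an atypical inhibitor of NF-kappaB, one of 0.93 (SE 0.253, adjusted p = 0.0245, edgeR). Il6st and Stat3 differed little in Tom-, by 0.08 (SE 0.107) and -0.10 (SE 0.088), with adjusted p of 0.636 and 0.475 in edgeR's test. Il6ra differed by -0.30 (SE 0.539, adjusted p = 0.75, edgeR) and Cebpb by -0.29 (SE 0.162, adjusted p = 0.242, edgeR). Without the 2 libraries whose reporter went against the label, Osmr remained called in Tom-, with an adjusted p of 0.0482, and Socs3 and Nfkbiz did not, with 0.13 and 0.113 in edgeR's test. In both fraction comparisons and in the interaction 0 of the 24 were called.

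Of 9 genes for receptors and handling of these proteins, among them Lrp1, Scarb1 and Tlr4, 1 was called lower in Tom- and 0 in Tom+ or in any fraction comparison. It was Lrp2, at a mean of 0.366 CPM, under the level set for named genes and named here after its value was seen.

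**Figure D4:**
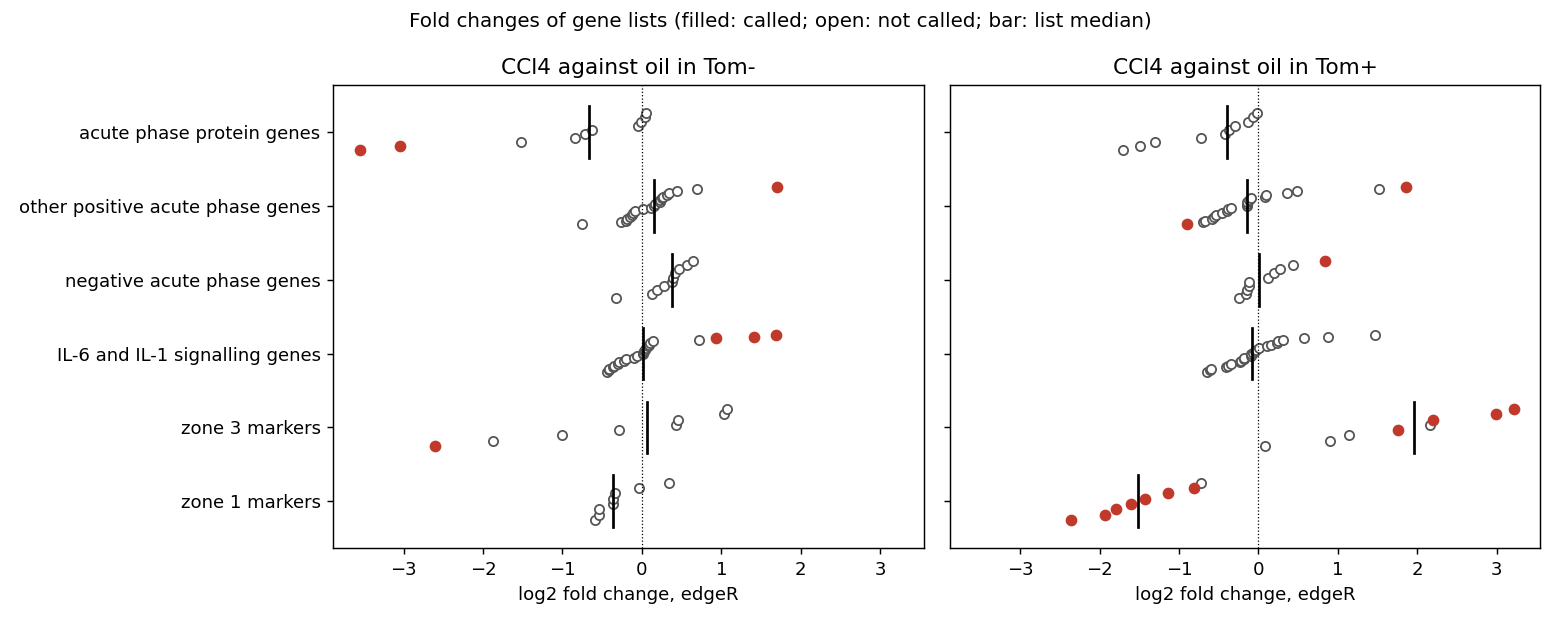
Fitted log2 fold changes on the horizontal axis, CCl4 against oil in Tom- (left) and Tom+ (right), for the 10 genes and 5 other lists, each point a gene and each bar a list median. Filled points were called. The 10 genes have medians of -0.67 and -0.39, and zone 1 markers have 7 filled points, all below 0, in Tom+ and none in Tom-.

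Markers of liver zones and of other cells moved in the same contrasts. Of 8 markers of zone 1, around the portal vein, 7 were called lower in Tom+ after CCl4 and 0 in Tom-, with list medians of -1.51 and -0.36. Of 8 markers of zone 3, around the central vein, 4 were called higher in Tom+, with a list median of 1.96, while in Tom- 1 was called lower and the median was 0.07. Between fractions after CCl4, 5 zone 1 markers were called lower in Tom+ and 0 zone 3 markers were called, with medians of -0.99 and 1.38. In oil 0 of either list were called, and all 8 zone 3 values were below 0 in Tom+ against Tom-, with a median of -1.09, beside the differences of Saa1, Saa2 and Lcn2 in that contrast. Without the 2 libraries whose reporter went against the label, 8 zone 1 markers were called lower and 6 zone 3 markers higher in Tom+ after CCl4, and the zone 3 median in oil was -2.15. In Tom- 2 zone 3 markers were then called lower after CCl4, with a list median of -0.35. Hsd17b13, a lipid droplet enzyme on the zone 1 list, was also among the 3 genes most like Orm1.

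Stellate cell markers, such as collagen genes, were called higher after CCl4 for 7 of 10 in Tom- and 6 of 10 in Tom+, and summed to 7.31 to 23.2 CPM in the oil and 52.3 to 107 CPM in the CCl4 libraries. All 8 endothelial markers were called higher in Tom- after CCl4, with sums of 90.3 to 137 CPM in oil and 234.5 to 255 CPM after CCl4, and 4 of 8 were lower in Tom+ than in Tom- after CCl4. All 12 macrophage and Kupffer cell markers were tested and 0 were called, with a median log2 fold change of 1.5 in Tom-, where their sums were 20.7 to 111 CPM in oil and 143.5 to 178.5 CPM after CCl4 and did not overlap. Of the neutrophil and lymphocyte markers only 3 of 10 and 1 of 8 reached the level for testing, and 0 were called. Of 10 hepatocyte markers 1 was called higher and 1 lower in Tom- and 1 higher and 2 lower in Tom+. Cholangiocyte markers summed to at most 32.6 CPM, with 1 called higher in Tom+, and mesothelial markers to at most 2.44 CPM. The part of the zonal and other cell markers in the levels of the acute phase genes was not tested, and in bulk samples fewer cells that express a gene cannot be told apart from less RNA per cell.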

How the data were processed

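Poly(A) RNA of the 12 sorted samples was sequenced on 1 platform. According to the submitters' notes the authors used fastp 0.23.2, HISAT2 2.1.0 and the mm10 genome. The authors deposited estimated counts per feature without normalization, of which 30.4% to 32.9% of non-zero values per library were not whole. Libraries were strand-specific and the authors computed TPM with TPMcalculator, but which program, strand setting and annotation made the deposited counts is not given in the sources used here. The tests had been planned for whole counts, so the values were rounded. Gene names came from GENCODE and matched 99.8% of features. edgeR 4.0.16 in R 4.3.3 was run with TMM normalization, filterByExpr and robust quasi-likelihood tests in 1 fit of 12 libraries with a coefficient per group, with Benjamini-Hochberg adjustment, and on sums of same-numbered libraries. Scripts were tested on simulated counts. Genes beyond the 10 were named where called in a list, up to 4 per direction, at a mean of at least 1 CPM, besides Crp, Alb, Il6ra, Il6st, Stat3, Socs3 and Cebpb and the 3 genes most like each of 5 members. Members and lists were chosen with earlier results of these data known. Within a treatment, every same-numbered pair correlated over 9662 genes (r from 0.372 to 0.693), which is a pairing seen in the data and not stated in the labels. Across treatments this did not hold for every pair. DESeq2 1.42.0 and limma 3.58.1 gave alternatives.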

Additional observations from a re-analysis of the deposited data

How the results depend on the processing

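Of 1242 values of the 10 genes recomputed under other settings, 1201 kept their side of the thresholds, 25 lost a call, 9 gained one and 7 changed sign by more than the standard error. A change of sign within the standard error was counted among the 1201. The cause was not tested unless a setting leaves out libraries or genes. With no expression filter 0 of the 10 genes were called in the summed libraries, where 277 of all 27185 features were called lower. With at least 10 counts in every library 1 was called, where 228 of all 15928 were called lower. With DESeq2 1 was called in Tom+, against 2.88% of all genes called lower, and 1 between fractions in oil, against 0.0642%. By adjusted p alone, 2 were called in Tom+ and 2 between fractions after CCl4, beside 1622 and 992 of all 17121 genes. With only the 6 libraries compared, 1 was called in Tom-, 1 in Tom+ and 0 between fractions after CCl4. Of all genes, 226 of 16164, 342 of 16290 and 300 of 16277 were called lower in these fits. Without both oil libraries whose reporter went against the label, 1 was called in Tom-, where 200 of all 17525 genes were called lower. Leaving out each library gave 1 to 2 genes in Tom-, 0 to 1 in Tom+, 0 to 2 in the summed libraries and 0 to 1 between fractions after CCl4. Of all genes, these fits called 179 to 316 lower in Tom-, 225 to 431 in Tom+, 130 to 269 in the sums and 74 to 313 between fractions after CCl4. They tested 17392 to 17680 genes, and 18144 to 18391 in the sums. With the replicate block 1 was called between fractions in oil, against 0.169% of all genes called lower. Across treatments the numbers are shared only as names, and there the block left 1 called in the summed libraries, with an adjusted p of 0.165 for Saa2 in edgeR's test. In that fit 310 of all 17743 features were called lower. The block changed no other call of the 10 genes.

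The values that changed sign by more than the standard error were not called in any of these fits. Each did so where 1 replicate was left out, and over all such fits Apcs in Tom- ranged from -0.146 to 0.067 (sign changed without Tom- oil replicate 3), Lcn2 in Tom+ from -0.27 to 0.48 and Hp in Tom+ from -0.31 to 0.18 (both without Tom+ oil replicate 3), and Orm2 between fractions after CCl4 from -0.98 to 0.41 (without Tom- CCl4 replicate 3). Apcs between fractions in oil ranged from -0.117 to 0.124 (without Tom+ oil replicate 3), Saa3 in the interaction from -0.82 to 0.63 (without Tom- oil replicate 3) and Hp in the summed libraries from -0.226 to 0.20 (without oil replicate 3). The number of all genes called between fractions after CCl4 was 336 and ranged from 77 to 992, and that of the interaction was 201 and ranged from 42 to 938. For the responses to CCl4 the counts were 1356 (902 to 2761) in Tom-, 897 (482 to 1622) in Tom+ and 848 (363 to 1452) in the sums, and between fractions in oil 0 (0 to 40). The list and marker genes were refitted without the 2 libraries whose reporter went against the label, an alternative chosen after seeing the data. With 3 libraries per group, log2 fold changes as large as -1.71 (Saa1) and -1.48 (Saa2) in Tom+ and -2.59 (Saa2) in oil did not pass the test, so smaller differences in these 2 genes could not be resolved.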
